A study of Mus musculus with 6 samples.

Results

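The mitochondrial ribosomal protein genes are the nuclear genes for the proteins of the ribosome inside mitochondria. They were taken by name, as every gene of the deposited heart table whose symbol is Mrpl or Mrps followed by a number and any letter. This gave 78 genes of 49585, 49 named for the large subunit (Mrpl) and 29 for the small subunit (Mrps). In hearts kept at lunar gravity, 1 of the 78, the large subunit gene Mrpl12, fell by the test used. Over all genes tested, 3.77% were called, and 2.21% were called lower. The call of Mrpl12 was lost with 1 control library grouped as the header of the deposited table has it. The other 77 members did not pass the test. Of the 78 estimates, 71.8% lay below the level of ground controls, mostly by little, against 49.8% of all genes tested.

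The PG group (partial gravity) came from male mice of 8 or 9 weeks that lived at 0.167 g aboard the International Space Station, where a centrifuge with a radius of 15 cm ran at 31 rpm. The GC group (ground control) came from male mice of 8 or 9 weeks at 1 g on the ground, of the strain C57BL/6J, 6 per mission. Each group has 3 libraries of heart RNA depleted of ribosomal RNA, PG1 to PG3 and GC1 to GC3. A strain is labelled only for GC and a mission for no library. Nothing states that the libraries came from separate mice, so p-values measure only their spread, which may be technical. A flight group at 1 g was not analysed here, and gravity cannot be told apart from the other conditions of spaceflight. The header of the deposited table places GC3 under PG, while its title calls it a ground control. The title was followed, and results are also given with GC3 grouped with PG.

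Mitochondrial ribosomes translate the few messenger RNAs that the mitochondrial genome still encodes, all of them for subunits of the respiratory chain and ATP synthase. Their ribosomal RNAs come from the mitochondrial genome, while every one of their proteins is made from a nuclear gene, translated in the cytosol and imported. Some of these proteins have a counterpart in bacterial ribosomes, and others are found only in mitochondria. Heart muscle depends heavily on oxidative phosphorylation, and in people variants in several of these genes, among them MRPL3, MRPL44 and MRPS22, cause childhood disease that can include cardiomyopathy.

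Total counts ranged from 7095862 to 8271553 in PG and from 6461213 to 7209653 in GC libraries. In the test across all genes (edgeR's quasi-likelihood test, called at a Benjamini-Hochberg adjusted p under 0.05), 462 of 12258 genes were called. All 11 cardiomyocyte markers were detected, at 159 to 2230 RPKM as library means, as the label heart would have it. Their summed level in CPM (counts scaled by TMM to a common library size) was 75541 to 84336 CPM in PG and 102090 to 103704 CPM in GC libraries. Of the 11, Myh6, Actc1, Ryr2 and Ttn were lower and Pln higher. The median log2 fold change of the 11, PG over GC, was -0.018, with 4 estimates above 0. Among 9 fibroblast markers 4 were lower, Col1a1, Col1a2, Col3a1 and Postn. The others, Pdgfra, Dcn, Lum, Tcf21 and Ddr2, were not called, and Dcn and Lum are matrix genes too. The 9 summed to 1362 to 1503 CPM in PG and 1600 to 1609 CPM in GC. Their median log2 fold change was -0.053, with 4 estimates above 0. Among 8 smooth muscle and pericyte markers Tagln and Rgs5 were higher and Acta2 lower. The 8 summed to 1321 to 1458 CPM in PG and 1221 to 1245 CPM in GC. No marker of endothelial cells (9), macrophages and leukocytes (8 of 12 tested) or red cells (6) was called by edgeR, DESeq2 or limma voom. At an unadjusted edgeR p under 0.05 there were 3, 1 and 0 of them, against 15.6% of all genes tested. The summed level of each of these lists overlapped between groups. The skeletal muscle myosins Myh1, Myh2 and Myh4 had 0 counts in all 6 libraries, and Acta1, skeletal actin, was lower. The part of these markers in the results below was not tested, and in bulk tissue fewer cells of a type and less RNA per cell cannot be told apart.

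The members' genes lie on 17 chromosomes, with 11 on chromosome 11 and 8 on chromosome 17, so their RNAs do not come from a single locus. All 78 are protein-coding in GENCODE M21. Of these, 18 (23.1%) have the start of another protein-coding gene on the opposite strand within 1000 bases upstream, against 1173 of 11865 other tested protein-coding genes (9.89%), with a median distance of 82 bases between the starts. Mrps12, for example, faces Sars2, which encodes a mitochondrial tRNA synthetase, across 172 bases, and Mrpl32 faces the proteasome gene Psma2 across 75 bases.

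Promoters of nuclear genes for mitochondrial proteins are known for sites of NRF1, of the ETS family (which includes GABP, also called NRF-2) and of YY1. RefSeq windows of 300 bases (GRCm38; 250 before and 50 after a gene's start) were found for 69 of the 78 members, as 75 windows. On either strand, 16 of the 75 (21.3%) held the NRF1 letters GCGCANGCG (N is any base), against 6.25% of all 32851 windows and 12.9% of windows of other tested genes. The ETS letters CCGGAAG stood in 26 (34.7%), against 8.86% of all windows and 16.6% of windows of other tested genes. The YY1 letters AAGATGGCG stood in 8 (10.7%), against 1.4% and 2.9%. At least 1 of these 3 was found in 42 member windows (56%), against 14.8% of all windows and 28.6% of those of other tested genes. The Sp1 letters CCCGCCC were no more frequent than in other tested genes (42.7% of member windows, against 46.1%). CCAAT stood in 40% of member windows, against 37.4% of all and 37.1% of windows of other tested genes. TATAAA stood in 6.67%, against 13.6% of all but 7.33% of those of other tested genes. The ZNF143 letters ACTACAATT were in no member window, against 0.393% of all and 0.714% of those of other tested genes. These are matches of letters and not measured sites, and overlap between the motifs was not removed. The motifs were chosen while their shares were in view, and the NRF1 and ZNF143 letters were shortened after a first count. Some genes have more than 1 window, and each window was counted. The shares are therefore descriptions and carry no test. The 3 windows below show 1 example of each of the first 3 motifs, in capitals, in a member described further on. Mrpl12 is the member that fell, Mrps22 a member among those with the smallest p in the small subunit, and Mrpl42 the member with the highest level. The first window is chr11:120484387-120484686 (+ strand) with NRF1 letters, the second chr9:98601630-98601929 (- strand) with ETS letters and the third chr10:95501900-95502199 (- strand) with YY1 letters, each printed 5′ to 3′ in the direction of transcription. In Mrpl12 the NRF1 letters read on the opposite strand, as CGCNTGCGC on the printed one. Counted from the start as position 1, the capitals begin at position -80 in Mrpl12, -11 in Mrps22 and 28 in Mrpl42.
Mrpl12: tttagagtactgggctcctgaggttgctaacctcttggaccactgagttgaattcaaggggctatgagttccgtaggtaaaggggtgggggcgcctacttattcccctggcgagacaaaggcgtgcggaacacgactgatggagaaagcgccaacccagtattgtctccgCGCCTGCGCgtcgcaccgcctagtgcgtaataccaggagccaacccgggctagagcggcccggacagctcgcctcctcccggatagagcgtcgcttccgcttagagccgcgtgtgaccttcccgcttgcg
Mrps22: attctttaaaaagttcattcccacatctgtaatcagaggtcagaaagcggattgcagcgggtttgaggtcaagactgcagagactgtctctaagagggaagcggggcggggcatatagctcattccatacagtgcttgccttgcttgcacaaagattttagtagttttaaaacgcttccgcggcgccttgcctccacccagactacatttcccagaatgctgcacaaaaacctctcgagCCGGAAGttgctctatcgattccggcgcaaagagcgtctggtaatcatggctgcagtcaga
Mrpl42: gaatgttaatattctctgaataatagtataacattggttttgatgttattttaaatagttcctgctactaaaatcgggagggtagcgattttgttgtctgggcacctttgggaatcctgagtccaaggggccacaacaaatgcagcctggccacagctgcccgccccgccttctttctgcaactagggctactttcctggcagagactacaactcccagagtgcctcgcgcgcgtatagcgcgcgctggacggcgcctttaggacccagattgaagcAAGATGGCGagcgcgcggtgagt

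In level per length, as the deposited RPKM (reads scaled for exon length and for sequencing depth) averaged over the 6 libraries, the median member stood at 7.96, and 47 of the 78 lay within 2-fold of it. The large subunit had a median of 8.26 RPKM and the small subunit 7.19 RPKM. For scale, nuclear genes of oxidative phosphorylation had a median of 96.1 RPKM and cytosolic ribosomal protein genes 35.8 RPKM. Most proteins of a ribosome are present in a single copy, while the RPKM values of the 78 genes spanned 109-fold. Part of this span goes with the exon length that RPKM divides by, which ran from 566 to 8631 bases over the members. Mrpl42 had 666 bases and Mrps10 had 8079. Mrps10 and Mrps12 had similar means of 15.7 and 16.9 CPM in PG, but stood at 1.11 and 7.84 RPKM, with Mrps12 at 1040 bases. Whether these exon lengths match the transcripts made in heart was not tested.

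Mrpl42, for a large subunit protein with no bacterial counterpart, had the highest level, at 120 RPKM (110 to 128 over the 6 libraries). Next came the small subunit gene Mrps21 at 34.4 RPKM (28.6 to 36.9), Mrpl12 at 32.1 RPKM (27.5 to 38.1) and Mrps23 at 30.6 RPKM (28.7 to 34.0), whose ranges overlapped. At the low end, Mrps10 stood at 1.11 RPKM (1.02 to 1.28) and Mrps22 at 2.01 RPKM (1.74 to 2.20). The lowest of the large subunit were Mrpl19 at 2.66 RPKM (2.07 to 2.95) and Mrpl17 at 2.68 RPKM (2.28 to 3.03). Of the 77 neighbouring pairs in this order, 74 had overlapping ranges, so the order within most of the list is not resolved. The 3 gaps came after Mrpl42, after Mrps23 and before Mrps10. Levels of 6 members are less certain, because under 50% of their exon reads were placed uniquely: Mrpl53 (0.155%), Mrpl23 (4.43%), Mrps34 (21.6%), Mrpl17 (23.6%), Mrpl33 (45.9%) and Mrps36 (47.6%). RPKM and the counts tested do not rest on the same reads. In PG1, Mrpl53 had 26 counts over 790 bases but 16.9 RPKM, while Mrpl1 had 246 counts over 4295 bases and 3.54 RPKM. By counts per base in PG1, Mrpl17 (83 over 7605 bases) stood below Mrps10 (131 over 8079 bases). The place of Mrps10 as the lowest is therefore given for RPKM only.

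**Figure D1:**
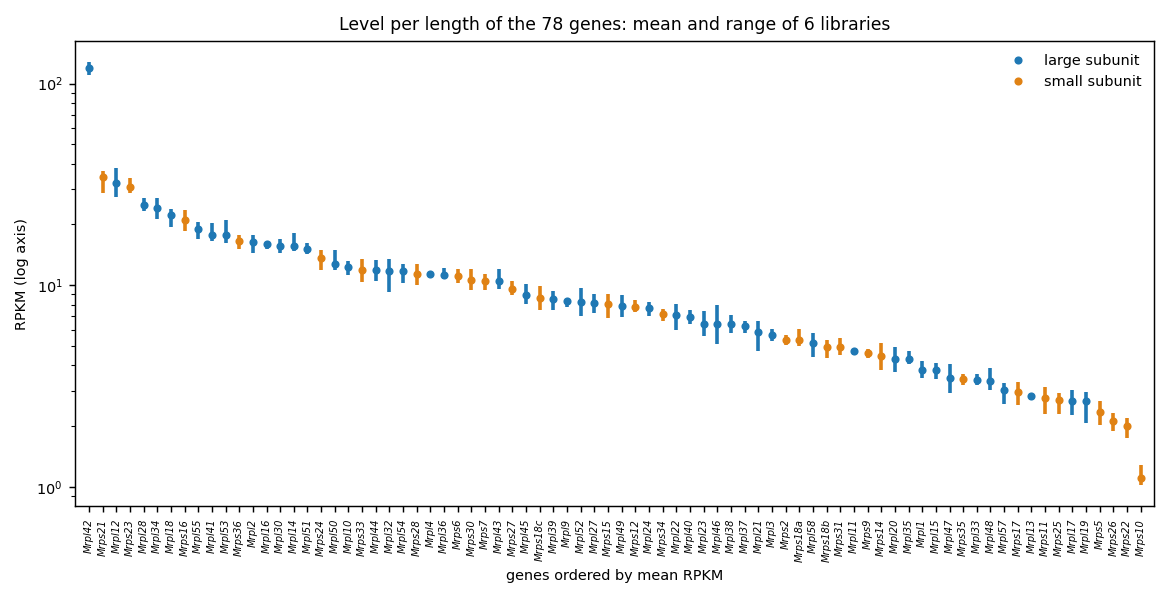
Level per length of the 78 genes in RPKM on a log axis, ordered by mean; points are means and bars the range over the 6 libraries, coloured by subunit. In this measure Mrpl42 at 120 RPKM and Mrps10 at 1.11 RPKM stand clear of their neighbours, while most adjacent ranges overlap. RPKM and the counts tested do not rest on the same reads.

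In PG hearts, 1 large subunit gene of 49 was lower and 0 were higher. By edgeR 0 of 29 small subunit genes were called in either direction. At an unadjusted p under 0.05, 4 of the 29 were lower and 0 higher, against 8.40% and 7.22% of all genes tested. DESeq2 without independent filtering (2.33% of all genes called) and limma voom (3.56%) also called Mrpl12 alone. Over all genes tested, edgeR called 3.77% (2.21% lower and 1.56% higher), so the share of members called is no higher than the background. All 78 members passed the filter on low counts, with 24 to 1402 counts per library (median 222).

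Mrpl12 encodes the counterpart of the bacterial L7/L12 protein, which forms the flexible stalk of the large subunit that brings translation factors to the ribosome, and its product has also been reported to bind the mitochondrial RNA polymerase. The gene (ENSMUSG00000039640) lies on chromosome 11, 120484613 to 120489065 on the + strand of GRCm38. Its level was 62.5, 66.6 and 74.8 CPM in PG1 to PG3, against 93.8, 87.7 and 83.5 CPM in GC1 to GC3. Every PG library was below every GC library. The means were 68.0 ± 6.23 CPM in PG and 88.3 ± 5.17 CPM in GC (SD, n = 3 each), a log2 fold change of -0.38 (SE 0.075, 95% interval -0.53 to -0.22), or 1.3-fold lower (edgeR adjusted p = 0.0041). The call held without any 1 library, at an adjusted p of 0.0015 to 0.035, and with DESeq2 without independent filtering (0.0080) and limma voom (0.0047). With GC3 grouped with PG the log2 fold change was -0.34 and the adjusted p 0.25. Of its exon reads 74.7% were unique, and the same change was found from unique exon reads alone (-0.38, adjusted p = 0.0042). Counting all exon reads gave a smaller change (-0.31, adjusted p = 0.031). Its exons overlap those of the antisense gene Gm16755, which had 2 to 4 counts in PG and 1 to 2 counts in GC libraries, and whether the counting used strand is not given in the sources used here. In the authors' deposited table, which groups GC3 with PG, Mrpl12 has a signed fold of -1.26 and an adjusted p of 0.533.

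**Figure D2:**
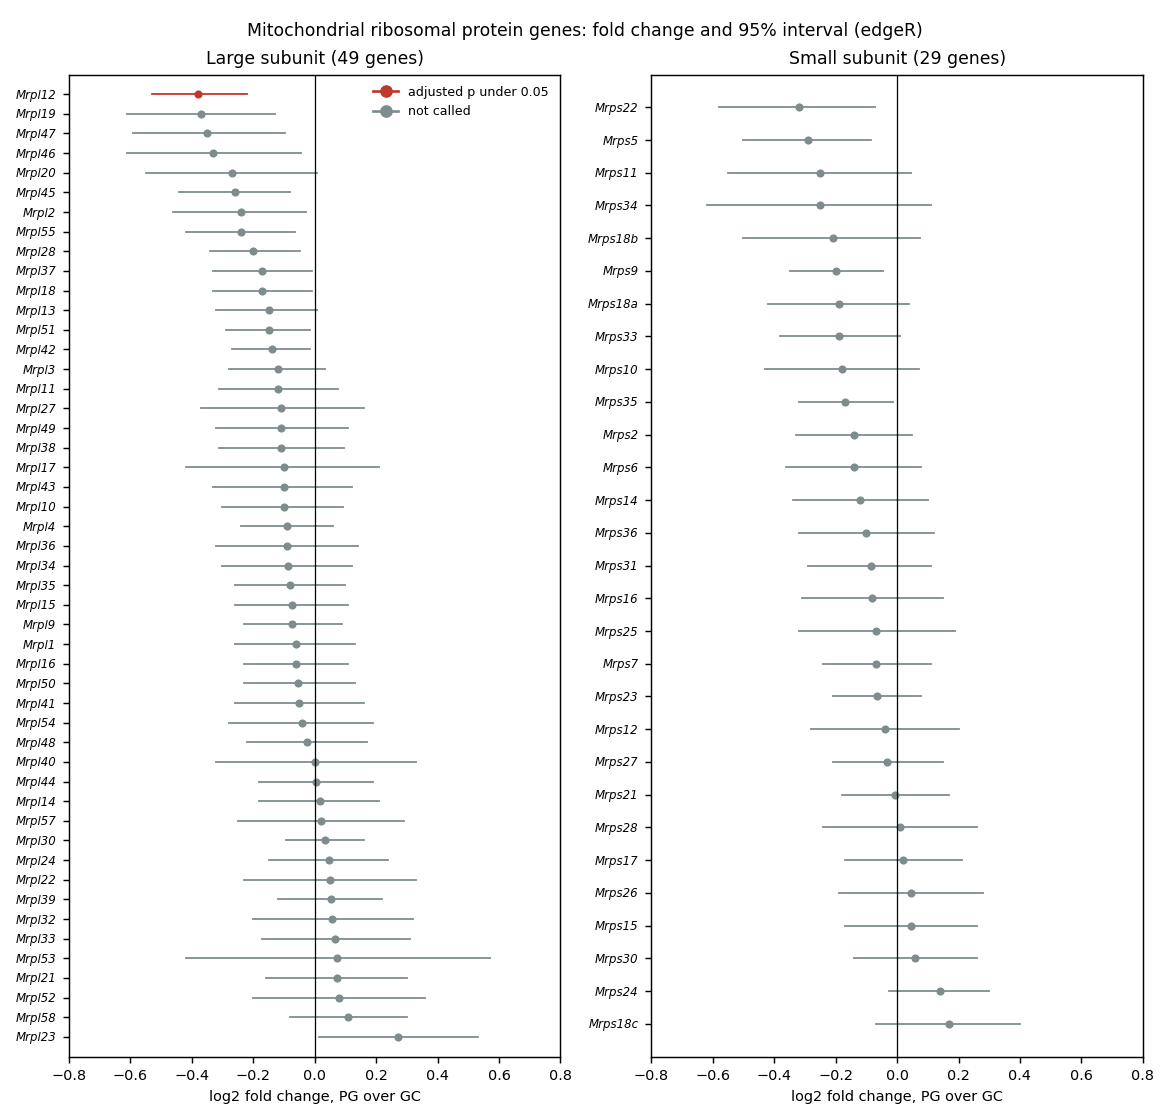
Log2 fold change, PG over GC, of the 49 large subunit genes (left) and 29 small subunit genes (right), with 95% intervals from edgeR; red marks an adjusted p under 0.05. Mrpl12 is the only called gene, and 56 of the 78 points lie below 0.

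Among the other large subunit genes, the smallest p belonged to Mrpl19, Mrpl45 and Mrpl47. Mrpl19, whose product is the counterpart of a bacterial protein of the same number, had 18.9, 22.2 and 26.8 CPM in PG, against 28.2, 29.2 and 30.3 CPM in GC. The groups did not overlap, but the PG libraries spread widely, and the log2 fold change of -0.37 (SE 0.12) did not pass (adjusted p = 0.081). It passed without PG3 (0.016) and with no filter on low counts (0.029). The protein of Mrpl45 sits at the exit of the peptide tunnel and anchors the ribosome to the inner membrane. That gene had 42.3, 43.5 and 47.6 CPM in PG, against 56.4, 57.0 and 46.7 CPM in GC, so GC3 lay among the PG libraries. Its log2 fold change was -0.26 (SE 0.087, adjusted p = 0.11), and it passed without GC3 (-0.35, adjusted p = 0.030). Mrpl47, for the counterpart of bacterial L29, had 16.5, 16.7 and 19.2 CPM in PG, against 20.7, 25 and 20.9 CPM in GC (log2 fold change -0.35, SE 0.12, adjusted p = 0.13). Here too the groups did not overlap, in a gene picked by its p from the same libraries.

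In the small subunit, the smallest p belonged to Mrps5, Mrps9, Mrps22 and Mrps35, none of which passed. Mrps5, for a protein beside the path by which messenger RNA enters the ribosome, had 23.8, 26.7 and 27.5 CPM in PG, against 33.2, 33.1 and 29.1 CPM in GC (log2 fold change -0.29, SE 0.10, adjusted p = 0.12). Mrps9 had 51.9, 54.4 and 50.9 CPM in PG, against 60.7, 58.1 and 61.5 CPM in GC (log2 fold change -0.20, SE 0.074, adjusted p = 0.16). In both, each PG library was below each GC library, and the same was true of the next pair. Picking genes by a small p in these libraries favours such separation, which 10.6% of all genes tested showed toward lower. Mrps22, for a protein found only in mitochondrial ribosomes, had 14.1, 14 and 16.9 CPM in PG, against 18.9, 19.0 and 18.6 CPM in GC (log2 fold change -0.32, SE 0.12, adjusted p = 0.17). Mrps35, also without a bacterial counterpart, had 57.1, 55.8 and 62.9 CPM in PG, against 68.3, 64.0 and 65.3 CPM in GC (log2 fold change -0.17, SE 0.074, adjusted p = 0.27).

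**Figure D3:**
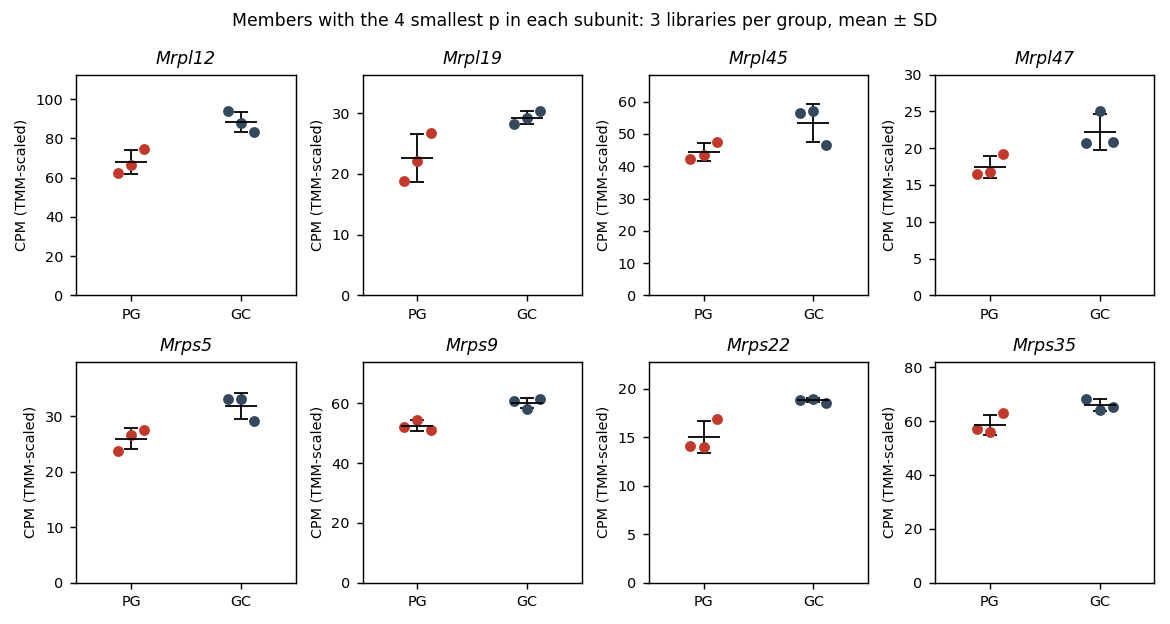
CPM (TMM-scaled) in each library of the 4 genes with the smallest p in each subunit, PG left and GC right of each panel; points are libraries, bars the mean and SD (n = 3). In Mrpl45 the GC3 library, at 46.7 CPM, lies among the PG libraries, and in the other 7 genes the groups do not overlap. The genes were picked by their p in these same libraries, which favours separate groups. Of all genes tested, 20.6% had groups that did not overlap, and 10.6% had them apart with PG lower, as in these 7.

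Of the 2 genes with the highest and the 2 with the lowest level in each subunit, Mrpl12, Mrpl19 and Mrps22 are described above, and the other 5 did not pass. Mrpl42 had 144, 156 and 168 CPM in PG, against 175, 170 and 172 CPM in GC (log2 fold change -0.14, adjusted p = 0.25). Mrps21 stood at -0.0058 (adjusted p = 0.99) and Mrps23 at -0.066 (adjusted p = 0.73), and the sign of Mrps21 turned under several alternatives. Mrps10, for a small subunit protein with a bacterial counterpart, had 15.0 to 16.3 CPM in PG and 16.7 to 19.7 CPM in GC (log2 fold change -0.18, adjusted p = 0.53). Mrpl17 stood at -0.10 (adjusted p = 0.83), or 0.11 when all exon reads were counted.

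Several members were described because of their place in the ribosome or in human heart disease. Mrpl3 stood at a log2 value of -0.12 (adjusted p = 0.48) and Mrpl44 at 0.0037 (adjusted p = 0.99). For Mrpl44 the 95% interval ran from -0.18 to 0.19, and its sign turned when GC3 was grouped with PG (-0.064), when the exon length trend was removed (-0.020), and without GC2, GC3, PG2 or PG3. Mrps12, whose product shapes the decoding centre, stood at -0.040 (adjusted p = 0.92), or 0.0042 when libraries were scaled by their totals.

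Mammals have 3 genes for homologues of the bacterial S18 protein, which take different places: the product of Mrps18c holds the bacterial position, that of Mrps18b another site in the small subunit and that of Mrps18a a site in the large subunit. Mrps18a had 18.9, 22.8 and 20.9 CPM in PG, against 24.6, 22.7 and 23.9 CPM in GC (log2 fold change -0.19, adjusted p = 0.44). Mrps18b had 12.2, 11.5 and 11 CPM in PG, against 14.9, 13.3 and 12 CPM in GC (log2 fold change -0.21, adjusted p = 0.52). Mrps18c had 19.2, 21.5 and 21.2 CPM in PG, against 18.2, 17.6 and 19.3 CPM in GC (log2 fold change 0.17, adjusted p = 0.53). The estimates for the 3 genes point in different directions, but groups overlapped in each and none passed. Mrps30, whose product is also placed in the large subunit, stood at 0.060 (adjusted p = 0.84). Mrps36, whose product was later assigned to the 2-oxoglutarate dehydrogenase complex, stood at -0.10 (adjusted p = 0.73), or 0.015 when all exon reads were counted.

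Across all members the estimates leaned low by a small amount. The log2 fold change was below 0 in 34 of 49 large and 22 of 29 small subunit genes, together 71.8%, against 49.8% of all genes tested. The count of 56 was 50 to 62 over the alternatives run on all 78 genes, at 50 without PG1 and 62 without GC2. The median was -0.088 in the large and -0.086 in the small subunit, both 1.06-fold lower, against 6.7e-04 over all genes tested. Without GC3 the median of the small subunit was -0.15, and without PG1 it was -0.054. With libraries scaled by their totals the medians were -0.045 and -0.043, against 0.045 over all genes. At an unadjusted p under 0.05, 16 members were lower and 1 higher, against 8.40% and 7.22% of all genes tested. The groups did not overlap in 21 members that were lower in PG, 14 large and 7 small, against 10.6% of all genes tested. They did not overlap in 2 members that were higher in PG, Mrpl23 and Mrps24, which were named after their values were seen, against 9.97% of all genes. Mrpl23 is the 1 member with an unadjusted p under 0.05 toward higher (log2 fold change 0.27, adjusted p = 0.29), with 4.43% of its exon reads unique. Members move together within a library, so these counts are descriptions and carry no test.

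The estimates of members were, in the median, more precise than those of all genes tested. The median SE of a log2 fold change was 0.0993 in members and 0.120 over all genes tested, and the median coefficient of variation between libraries was 7.38% in PG and 7.31% in GC. The 95% interval lay within 1.5-fold either way in 74 of 78 members, against 74.0% of all genes.

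The summed level of the large subunit genes was 1747, 1833 and 1932 CPM in PG, against 2033, 1948 and 1949 CPM in GC. Means were 1837 ± 92.8 CPM in PG and 1977 ± 48.8 CPM in GC (SD, n = 3 each), a difference of -7.06%. The summed level of the small subunit genes was 861, 893 and 903 CPM in PG, against 970, 935 and 910 CPM in GC, with means of 886 ± 21.9 and 939 ± 30.2 CPM (SD, n = 3 each), a difference of -5.64%. In both sums each PG library was below each GC library, and PG3 was the closest to them. The ratio of large to small subunit sums was 2.03, 2.05 and 2.14 in PG, against 2.10, 2.08 and 2.14 in GC, which overlapped.

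Members with and without bacterial counterparts had medians slightly below 0 in both subunits. In the large subunit, 29 genes with a bacterial counterpart had a median log2 fold change of -0.091, with 21 below 0. Of the 29, 1 was called lower, against 2.21% of all genes tested. The 20 specific to mitochondria had a median of -0.052 and 13 below 0, with 0 called by edgeR, DESeq2 or limma voom. Of these 20, 6 were lower and 0 higher at an unadjusted p under 0.05, against 8.40% and 7.22% of all genes tested. Of the 29, 6 were lower and 1 higher at such a p. Groups did not overlap toward lower in 11 of the 29 and 3 of the 20, against 10.6% of all genes tested. They did not overlap toward higher in 1 of the 29 and 0 of the 20, against 9.97%. In the small subunit, the 16 with a counterpart had a median of -0.075 (11 below 0) and the 10 specific ones -0.078 (8 below 0). No test of a difference between these classes was made.

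Reads in introns of nuclear genes come mostly from unspliced RNA, and the intron reads gave a second read class of the same libraries. The intron reads of 59 members, 36 large and 23 small, could be tested, and edgeR called 0 of them, against 2.56% of 12776 genes. At an unadjusted p under 0.05 there was 1 member, Mrps28 (log2 fold change -0.24, adjusted p = 0.24), against 13.7% of all genes, and limma voom called 0, against 2.42%. The medians were 0.047 in the large and 0.018 in the small subunit, with 24 of 59 estimates below 0. Intron counts were low, with a median of 23 per member and library, and their median SE was 0.236, so a shift as small as that of the exon reads was not detectable in single members. The difference between intron and exon estimates was not tested.

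Genes that work with the mitochondrial ribosome were counted in the same test, which called 2.21% of all genes lower and 1.56% higher. With GC3 grouped with PG, the calls of Tufm, Taco1, Lars2, mt-Nd3, Rpl3l, Rps27, Atp5k and Ndufb10 were all lost (adjusted p = 0.25 to 0.63). Of 13 mitochondrial translation factors, 2 fell and 0 rose, the median was -0.17 and 11 estimates were below 0. Tufm, the elongation factor that delivers tRNAs to the ribosome, had 93.3, 99.0 and 98.8 CPM in PG, against 123, 109 and 117 CPM in GC (log2 fold change -0.26, SE 0.065, adjusted p = 0.021), with 31.3% of its exon reads unique. Its call was lost without GC1, GC3, PG1 or PG2 (up to 0.14), from unique exon reads (0.17), with DESeq2 without independent filtering (0.076) and with library totals (0.064). Taco1, a translational activator of cytochrome oxidase subunit I, had 29.5, 29.5 and 30.6 CPM in PG, against 40.5, 36.2 and 36.2 CPM in GC (log2 fold change -0.33, SE 0.090, adjusted p = 0.038). Taco1 lost the call without any 1 of the 6 libraries (up to 0.18), with DESeq2 (0.18 without and 0.10 with independent filtering), with library totals (0.088) and with total exon reads (0.068).

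Of 20 mitochondrial tRNA synthetases, which charge tRNAs with amino acids, 1 fell and 0 rose, against 2.21% and 1.56% of all genes tested. The median of the 20 was -0.095, with 16 estimates below 0. Lars2, for leucine, had 35.6 CPM in each PG library, against 44.0, 44.1 and 47.6 CPM in GC (log2 fold change -0.34, SE 0.082, adjusted p = 0.016). Its call was lost without GC2, GC3 or PG2 (up to 0.078) and with DESeq2 without independent filtering (0.088). By edgeR 0 of 24 assembly factors, 0 of 5 other mitoribosomal proteins, 0 of 16 genes of mitochondrial transcription and RNA stability and 0 of 10 regulators were called, nor did DESeq2 or limma voom call any. In these lists the lowest p-values were those of the ribosomal RNA methyltransferase gene Nsun4 (log2 fold change -0.26, adjusted p = 0.15), the small subunit pentatricopeptide gene Ptcd3 (-0.15, 0.22), the RNA stability factor Lrpprc (-0.17, 0.087) and the coactivator Ppargc1a (-0.12, 0.31). At an unadjusted p under 0.05, 3 assembly factors, 1 other mitoribosomal protein, 2 genes of transcription and RNA stability and 1 regulator were found. Of all genes tested, 15.6% had such a p. Their medians were -0.062, 0.0055, -0.057 and -0.012.

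The RNAs that the mitochondrial ribosome translates had a median of -0.094 over 13 genes. Of these, 1 was called higher (1.56% of all genes tested), mt-Nd3 for a subunit of complex I. mt-Nd3 had 162, 193 and 193 CPM in PG, against 163, 150 and 152 CPM in GC (log2 fold change 0.24, adjusted p = 0.049), with overlapping groups and 3.49% of its exon reads unique, and counting all exon reads gave -0.0030. Without any library but PG1 its call was lost (up to 0.26), as with DESeq2 (0.12 without and 0.068 with independent filtering), limma voom (0.066), the non-robust fit (0.080), the 5 CPM filter (0.055), unique exon reads (0.051) and the exon length trend removed (0.10). The mitochondrial ribosomal RNAs are listed with no exon, so that their reads stand among the intron reads of libraries from which ribosomal RNA had been depleted. Of all intron reads, mt-Rnr2 alone made up from 22.9% in GC2 to 26.8% in PG3, and these are not reads of unspliced nuclear RNA. There mt-Rnr1 had 47797, 44507 and 56150 CPM in PG, against 55797, 52437 and 60882 CPM in GC (log2 fold change -0.19, adjusted p = 0.44), and mt-Rnr2 a log2 fold change of 0.021 (adjusted p = 0.95). The part of the depletion in these levels was not tested.

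Genes for the proteins of the cytosolic ribosome had estimates mostly above 0. Of 80 cytosolic ribosomal protein genes tested, 3 rose and 1 fell, against 1.56% and 2.21% of all genes tested. The median of the 80 was 0.092, and 61 estimates were above 0. Rpl3l, a form found in heart and skeletal muscle, had 155, 158 and 155 CPM in PG, against 194, 200 and 203 CPM in GC (log2 fold change -0.35, SE 0.055, adjusted p = 4.1e-04), and kept the call without any 1 library. Rps27 had 119, 107 and 126 CPM in PG, against 98.3, 101 and 95.1 CPM in GC (log2 fold change 0.26, adjusted p = 0.025), with 0.785% of its exon reads unique. Rps27 lost the call without any library but PG2 (up to 0.098), with DESeq2 without independent filtering (0.081) and with the exon length trend removed (0.057).

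Among 78 nuclear genes of oxidative phosphorylation 2 fell and 0 rose, against 2.21% and 1.56% of all genes tested, with a median of 0.0028. Atp5k, for a subunit of ATP synthase, had 80.5, 76.6 and 81.8 CPM in PG, against 102, 96.3 and 90.1 CPM in GC (log2 fold change -0.27, adjusted p = 0.023). Ndufb10, for a subunit of complex I, had 213, 232 and 216 CPM in PG, against 265, 259 and 241 CPM in GC (log2 fold change -0.21, adjusted p = 0.036). Atp5k lost the call without GC1, GC2 or PG2 (up to 0.14), and Ndufb10 without GC1, GC2, PG1 or PG3 (up to 0.21). Atp5k also lost it with DESeq2 without independent filtering (0.087) and with library totals (0.078). Ndufb10 also lost it with DESeq2 (0.091 without and 0.051 with independent filtering), upper quartile scaling (0.052), library totals (0.11) and the non-robust fit (0.057).

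Library by library, the median deviation of the large subunit genes from their own mean was -0.099, -0.049 and 0.034 in PG, against 0.098, 0.0087 and 0.028 in GC, on the log2 scale. For the small subunit genes it was -0.11, -0.039 and 0.0099 in PG, against 0.11, 0.037 and -1.1e-04 in GC. PG1 was the lowest and GC1 the highest library in both subunits, while PG3 lay among or above GC2 and GC3. For translation factors and tRNA synthetases each PG library was below each GC library, and for cytosolic ribosomal proteins each PG library was above.

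**Figure D4:**
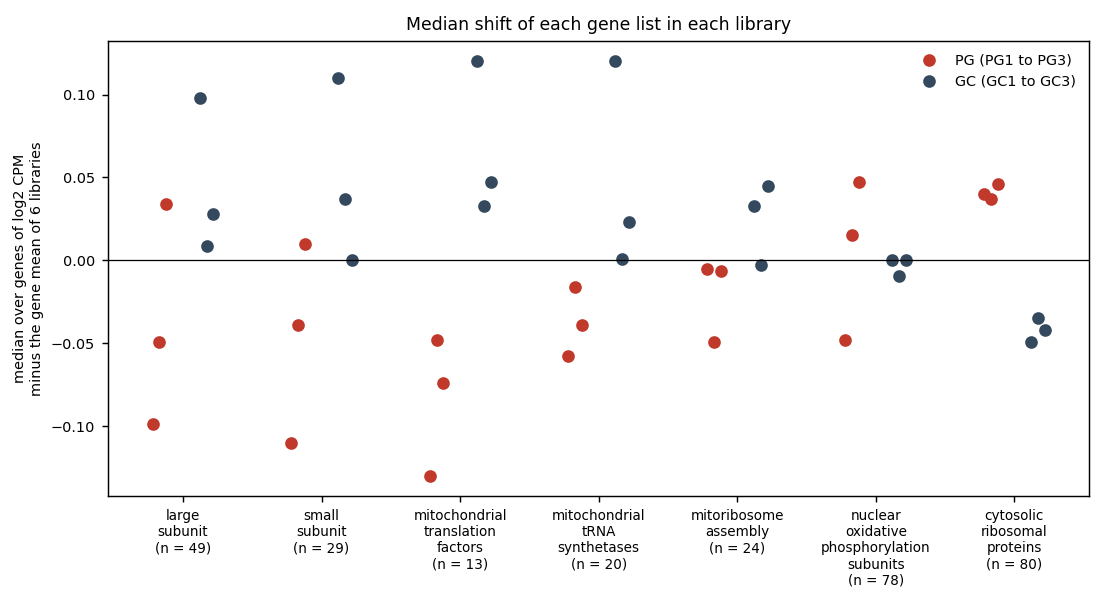
Median over each gene list of the log2 CPM in a library minus the gene's mean over the 6 libraries, PG left and GC right in each list; 1 point per library. For both subunits of the mitochondrial ribosome PG1 is lowest and GC1 highest and PG3 overlaps GC, while for cytosolic ribosomal proteins the groups stand apart with PG higher.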

How the data were processed

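RNA from mouse hearts was sequenced on an Illumina NextSeq 500 after depletion of ribosomal RNA from about 500 ng, per the labels' protocols. The authors deposited 1 table of 49585 rows and 161 columns. Per the submitters' processing notes the build was mm10 (GRCm38). Aligner, counter, annotation and strand setting were not given in the sources used here. The expression values as deposited are whole counts of reads per gene, beside counts of unique exon, total exon and intron reads, and these were tested. The deposited RPKM values, per the file headers, served only for levels. In RPKM the median log2 ratio of PG over GC was 0.12 over all genes and 0.040 in members, so group differences were read from CPM. The authors' own deposited comparison holds p-values and a signed fold score. It has 111 genes at an adjusted p-value under 0.05, 0 of them members. Gene starts in the table are counted from 0, and 1 was added.

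Genes were filtered with filterByExpr (minimum count 10). After TMM scaling they were tested by a robust quasi-likelihood fit in edgeR 4.0.16 (R 4.3.3), with Benjamini-Hochberg adjustment over all genes tested. CPM values are TMM-scaled. Within groups the libraries varied beyond counting noise (chi-square per gene 2.14 to 5.73). The biological coefficient of variation was 6.20%. Alternatives used DESeq2 1.42.0, limma 3.58.1 voom, other scalings, filters and read columns, a replicate block, and each library left out. The steps were tried on simulated counts with 1 fixed dispersion for both read classes. Intron reads had a biological coefficient of variation of 10.1%, so their simulation was less noisy than the data. Named genes were every called member, the 4 smallest p, 2 highest and 2 lowest RPKM in each subunit, a panel of 10, and in each other list up to 2 called genes or else the 1 with the smallest p. The 7 promoter motifs were chosen while their shares were in view, and the NRF1 and ZNF143 letters were shortened after a first count. Members and lists were chosen with earlier results of these data known, and sequences are RefSeq's.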

Additional observations from a re-analysis of the deposited data

How the results depend on the processing

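Of all genes tested, 462 were called, against 765 with no filter on low counts, 286 and 307 with DESeq2 without and with independent filtering, 32 with GC3 grouped with PG, and 219 to 463 with 1 library left out (219 without GC2, 232 without PG2). With libraries scaled by their totals 59.9% of calls were higher, against 41.3%, and 51 of 78 members were below 0, against 56. Large subunit genes had 1 call, but 2 with no filter (Mrpl12 and Mrpl19), 2 at an adjusted p under 0.10, 1 to 2 with 1 library left out, 0 with GC3 grouped with PG, and 0 among genes with at least 90% unique exon reads, which leave out Mrpl12. The replicate numbers did not pair the libraries (correlations of same-numbered deviations 0.0076, -0.054 and 0.045, and PG1 was closest to GC2). The replicate block gave 545 calls and 2 large subunit genes, Mrpl12 and Mrpl19 (adjusted p = 0.045 for Mrpl19), and the same 2 with the exon length trend removed as well (0.045). Small subunit genes had 0 calls under every alternative run. Their median ranged from -0.15 to -0.054 with 1 library left out. Intron reads gave 0 members called under every alternative run, limma voom among them, which was added after the data were seen. Signs turned in uncalled genes near 0 and in mt-Nd3. Mrps21 stood at 0.0079 with upper quartile scaling, 0.038 with library totals, 2.6e-04 with the replicate block and -0.095 to 0.072 with 1 library left out (above 0 without GC1, GC2 or PG3). Mrpl44 stood at -0.020 with the exon length trend removed, -0.019 with the replicate block too, -0.064 with GC3 grouped with PG, and -0.046 to 0.075 with 1 library left out (below 0 without GC2, GC3, PG2 or PG3). With total exon reads Mrpl17 stood at 0.11, Mrps36 at 0.015 and mt-Nd3 at -0.0030, and with library totals Mrps12 at 0.0042. The cause of these differences was not tested. With 3 libraries a group, members of few counts had the widest intervals.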
